A study of Rattus norvegicus with 11 samples.

Results

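Ribosomal protein genes were followed in a rat embryonic stem cell line, DAc2, during its conversion into hypoblast stem cells, the stem cells of the extraembryonic layer that gives rise to yolk sac endoderm. A gene was included where a row of the expression table, which is one probe set of the array, carried exactly 1 gene symbol and that symbol had the form Rpl or Rps followed by a number, the S6 kinase genes excepted. Of 253 such rows the brightest row of each gene, by its mean over 11 arrays, stood for the gene. The rule gave 70 genes of 14506 genes tested, 43 of the large subunit and 27 of the small subunit by symbol, and none was removed by a filter. The symbol rule also takes in Rps19bp1, a binding protein of Rps19 that is no part of the ribosome, and the pseudogene symbol Rpl17-ps16. It takes in Rpl22l1 and Rps4y2, which are close copies of Rpl22 and Rps4x. Rpl36al1 and Rpl37l1, whose symbols name them as like Rpl36a and Rpl37, are members as well, and Rpl37 has no row of its own. Structural genes with other symbols, such as Rpsa and Rplp0, are outside the rule and are given apart.

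Each ribosome is a complex of ribosomal RNA and ribosomal proteins in a small subunit, which reads the mRNA, and a large subunit, which joins the amino acids. The proteins are needed in nearly equal numbers, and their mRNAs are among the most abundant of a growing cell. Most of these mRNAs begin with a C followed by a run of pyrimidines, the terminal oligopyrimidine (TOP) tract, through which mTOR signalling and the protein Larp1 set their translation together.

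The series holds 11 arrays of total RNA, 1 per sample, from stem cells at day 0 and from cells at days 7, 17 and 32 of conversion. In the feeder-free arm the stem cells had been grown on laminin in N2B27 medium with 3 µM CHIR99021 (a GSK3 inhibitor), 2 µM PD0325901 (a MEK inhibitor) and 5 ng/mL human BMP4. This arm has 1 array at day 0 and 2 at each later day, 7 arrays in all. In the feeder arm they had been grown on mouse embryonic fibroblasts in N2B27 with PD0325901 at 0.5 µM, CHIR99021 at 3 µM and no BMP4, and this arm has 1 array at each day, 4 arrays in all. Both arms were converted in a rat multipotent adult progenitor cell medium with 2% fetal bovine serum, PDGF, EGF and LIF. The feeder-free pairs are labelled as biological replicates, and it is not said whether they came from separate cultures. The spread between the arrays of a pair may thus be technical. P-values of a fit with a mean for each of the 8 groups rest on this spread alone. Those of a fit with terms for day and culture arm also measure how differently the arms changed over the days. Feeder cells, PD0325901 dose, substrate and BMP4 differ together between the arms and cannot be told apart.

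The hypoblast markers and 2 of the 3 pluripotency markers followed the labels. Nanog (-6.20) and Sox2 (-3.63) fell from day 0 to day 32 (log2, limma adjusted p = 5.8e-04 and 7.7e-04), while Pou5f1 was not called (-0.57, adjusted p = 0.15) and stood at 14.41 and 14.27 at day 32 without feeders. The median of the 4 hypoblast markers Gata4, Gata6, Sox17 and Pdgfra rose from 9.88 to between 14.45 and 14.53 at day 32 in the feeder-free arm, and from 8.80 to 14.45 in the feeder arm. At day 7 the feeder arm was behind, with this median at 11.22 against 13.93 and 14.09 in the feeder-free pair, and its median pluripotency marker had gone only from 13.35 to 13.29. The median of all table rows was 8.97 on each of the 11 arrays. The bright end moved more: the median of 873 genes outside the family with a mean level of at least 13 lay between 13.48 and 13.74. With 11 arrays, precision is set by their number.

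Promoter windows of 57 of the 70 genes were matched by gene in the RefSeq annotation of the build GRCr8. In 21 of the 57 (36.8%) the annotated first base of the transcript was a C followed by at least 4 bases that were each C or T, read on the gene's own strand. The same holds for 2.63% of 33469 windows of the same length from all genes. The windows printed here, 25 bases before and 15 from the annotated start, belong to the 5 genes furthest below and the 4 furthest above 0 in the difference between the arms, and show the starts of genes that differed in either direction. Capitals mark the C at the start and the pyrimidine run after it, and a window in lower case has no tract at the annotated start.
Rpl22, chr5:168117936-168117975, plus strand: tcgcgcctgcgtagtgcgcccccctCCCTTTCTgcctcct
Rps27, chr2:177964592-177964631, minus strand: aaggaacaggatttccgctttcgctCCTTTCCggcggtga
Rps12, chr1:23500050-23500089, plus strand: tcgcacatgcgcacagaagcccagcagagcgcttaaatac
Rps24, chr16:96492-96531, plus strand: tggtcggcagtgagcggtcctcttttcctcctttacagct
Rpl13, chr19:68062489-68062528, plus strand: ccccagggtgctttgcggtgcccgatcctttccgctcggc
Rps15, chr7:10068101-10068140, minus strand: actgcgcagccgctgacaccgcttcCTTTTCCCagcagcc
Rpl39, chrX:121195882-121195921, minus strand: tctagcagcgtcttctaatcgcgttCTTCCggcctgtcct
Rps28, chr7:15311319-15311358, minus strand: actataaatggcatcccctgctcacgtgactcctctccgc
Rpl36a, chrX:102059424-102059463, plus strand: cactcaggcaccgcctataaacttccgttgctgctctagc
Rpl22, Rps27, Rps12, Rps24 and Rpl13 were lower in the feeder arm, and Rps15, Rpl39, Rps28 and Rpl36a were higher. Both directions held genes with a tract and genes without one. The search took only a C at the annotated start; the annotated first base of Rpl13 and Rps24 is T, so that the pyrimidine runs seen in their windows were not counted.

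The genes were among the brightest on the array. Their median level over the 11 arrays was 14.63 (log2), against 9.58 for all genes tested, and 99.2% of all genes lay below it. The brightest were Rps29 at 15.96, Rpl31 at 15.73 and Rpl5 at 15.53. A mean level of at least 13 was reached by 62 of the 70 genes, and 5 stayed below 12. These were Rpl17-ps16 at 9.01, Rpl15 at 9.04, Rps27 at 9.70, Rps19bp1 at 10.29 and Rpl22l1 at 10.98. Levels of different probe sets are not calibrated against each other, so that this order describes the array and not the number of transcripts.

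Over the days of conversion the genes stayed close to their starting level in both arms. The range of a gene's daily means had a median of 0.19 (log2) in the feeder-free arm and 0.23 in the feeder arm, against 0.40 and 0.42 over all genes. Genes of like brightness outside the family were not compared on this range. The range was under 0.5 in both arms for 69 of the 70 genes. The exception was Rps27, a zinc-binding protein of the small subunit, whose single row lies at 9.70. It is one of the 5 genes below 12, of which Rpl17-ps16 and Rpl15 lay lower still. Differences between days were tested with limma in a fit with terms for day and culture arm, and a gene is called changed where its p-value, adjusted by Benjamini-Hochberg over all 14506 genes, is under 0.05.

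From day 0 to day 7, 1 of the 70 genes was called, where 16.0% of all genes were. It was Rpl22, an RNA-binding protein of the large subunit. Rpl22 stood at 15.08 on the feeder-free array of day 0 and at 14.72 and 14.82 at day 7, and at 13.42 and 12.99 on the feeder arrays. Both arms were lower at day 7, by 0.31 and 0.43, and the fitted difference was -0.36 ± 0.08 (SE, limma adjusted p = 0.017). The call was lost without the feeder-free array of day 0 (-0.41, adjusted p = 0.068), without feeder-free day 7 replicate 1 (-0.35, adjusted p = 0.053) and without the feeder array of day 0 (-0.32, adjusted p = 0.062). The other genes lay between -0.35 (Rps27, adjusted p = 0.29) and 0.28 (Rpl22l1). The members' median was -0.07 and that of all genes -0.04, but it was 0.01 after further quantile normalization.

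From day 7 to day 17 none of the 70 genes was called by limma, against 12.8% of all genes, although 25 had an unadjusted p under 0.05 and 67 of the 70 were higher at day 17. Variance shrinkage with a trend and robust settings called 10, all higher, and a fit with a mean for each of the 8 groups called 6. The largest differences were 0.27 ± 0.09 (SE, adjusted p = 0.075) in Rpl14 and 0.26 ± 0.13 (SE, adjusted p = 0.20) in Rps24. The members' median difference was 0.15 and that of all genes 0.09. Bright genes as a class were also higher at day 17: with each array centred on the 873 bright genes outside the family, the members' median became -0.02, 20 genes were higher and 50 lower, and the median of all genes moved from 0.09 to -0.08. The direction of this shared step thus depends on the scaling.

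From day 17 to day 32 the genes were flat. None was called, and 0.00% of all genes were. At an unadjusted p under 0.05 there was 1 member, and the 8-group fit called 1. All but Rps27 moved by less than 0.3. Rps27 differed by -0.47 ± 0.18 (SE, limma adjusted p = 0.58).

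Between stem cells at day 0 and hypoblast stem cells at day 32, 9 of the 70 genes were called, or 12.9%, against 31.0% of all genes. The 6 that rose were Rpl14 (0.35 ± 0.10, SE), Rps15a (0.33 ± 0.10), Rps21 (0.32 ± 0.10), Rps28 (0.29 ± 0.09), Rps26 (0.29 ± 0.08) and Rpl13a (0.28 ± 0.09), with limma adjusted p between 0.024 and 0.043. Of all genes 17.4% rose and 13.7% fell. The 3 that fell were Rps27 (-0.70 ± 0.20, adjusted p = 0.030), Rps4x (-0.27 ± 0.08, adjusted p = 0.034) and Rps3a (-0.24 ± 0.08, adjusted p = 0.038). The split of the calls depended on the scaling. Centring on bright genes gave 0 higher and 6 lower, centring on all genes tested 1 and 3, and quantile normalization 3 and 4. No gene was called without the feeder-free array of day 0 or without feeder-free day 32 replicate 1. The count was 1 without the feeder array of day 32, 3 without feeder-free day 17 replicate 1 or 2, feeder-free day 32 replicate 2 or the feeder array of day 17, 4 without the feeder array of day 0, and 5 without feeder-free day 7 replicate 1.

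Rpl14, a large subunit protein, stood at 14.87 in feeder-free stem cells and at 15.15 and 15.08 at day 32. In the feeder arm it went from 14.35 to 14.84. Rps3a, a small subunit protein, stood at 15.15 in feeder-free stem cells and at 14.91 and 14.86 at day 32, and went from 14.45 to 14.22 in the feeder arm. Both genes moved the same way in both arms, by less than 0.5. Rps4x, the X-linked gene for a protein of the small subunit, went from 15.47 to 15.18 and 15.12 in the feeder-free arm and from 15.71 to 15.51 in the feeder arm.

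**Figure D1:**
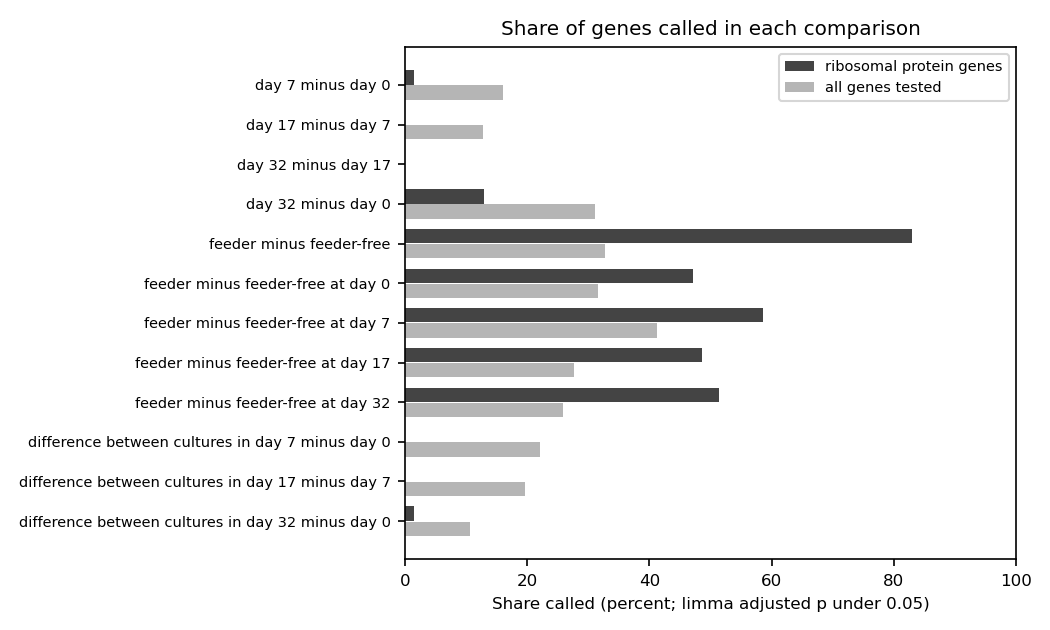
Share of genes called in each comparison (percent, limma adjusted p under 0.05), for the 70 ribosomal protein genes (dark bars) and all 14506 genes tested (light bars). The family's share was 12.9% against 31.0% for day 32 minus day 0 and 82.9% against 32.7% for the comparison of the arms, and neither had a call for day 32 minus day 17.

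The arms differed in most genes of the family. In the feeder arm 37 genes were lower and 21 higher than in the feeder-free arm, 58 of the 70 or 82.9%, where limma called 32.7% of all genes. Lower genes were 17.2% and higher genes 15.5% of all genes. In this fit a change over days that differs between the arms adds to the spread, so that genes whose arms changed alike are called more readily. The median size of the difference was 0.34 (log2) in the family and 0.19 over all genes, and a size over 0.5 was reached by 30 of the 70 genes (42.9%) and by 18.5% of all genes. Bright genes outside the family were also called often. Of these 873 genes 56.8% were called, with a median size of 0.30, and 50 of the 62 ribosomal protein genes of that brightness were called. In bulk RNA, fewer cells of a type and less RNA per cell cannot be told apart.

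All 7 feeder-free arrays lay on one side of all 4 feeder arrays in 46 of the 70 genes, 28 lower and 18 higher in the feeder arm, against 15.0% of all genes. Rpl22 had the largest difference. Its feeder-free arrays ran from 14.72 through a median of 14.99 to 15.08, and its feeder arrays stood at 13.42, 12.99, 13.25 and 13.24 at days 0, 7, 17 and 32. The arms did not overlap on any day, and the fitted difference was -1.74 ± 0.05 (SE, limma adjusted p = 6.2e-07), so that the feeder arm held 30.0% of the feeder-free level. Rps12, a protein of the small subunit's head, ran from 15.17 through 15.27 to 15.39 in the feeder-free arm and stood at 13.93, 13.58, 13.77 and 13.79 in the feeder arm. It was likewise separated throughout, by -1.52 ± 0.06 (SE, adjusted p = 3.6e-06).

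Rps24, a small subunit protein whose gene is mutated in some patients with Diamond-Blackfan anaemia, ran from 14.29 through 14.64 to 14.80 without feeders. Its feeder arrays stood at 13.43, 13.18, 13.42 and 13.20, all below the lowest feeder-free array (-1.24 ± 0.10, SE, limma adjusted p = 3.4e-05). Rpl13, of the large subunit, ran from 14.85 through 15.08 to 15.18 without feeders and stood at 14.04, 13.86, 13.82 and 13.98 with them. It was lower by 1.13 ± 0.08 (SE, limma adjusted p = 1.9e-05) on its brightest row. Rps27 (-1.08 ± 0.14) and Rpl22l1 (-1.002 ± 0.080) completed the 6 genes with a size over 1. Rpl22l1 stood between 11.03 and 11.52 without feeders and between 10.11 and 10.46 with them, so that Rpl22 and its copy were lower in the same arm. The next were Rps21 (-0.92), Rpl34 (-0.88), Rps15a (-0.86) and Rpl24 (-0.82).

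The genes higher in the feeder arm were led by Rps28, a small protein near the mRNA exit of the small subunit. Its feeder-free arrays ran from 14.13 through 14.50 to 14.59 and its feeder arrays stood at 15.18, 15.16, 15.35 and 15.29. The arms did not overlap, and the difference was 0.85 ± 0.06 (SE, limma adjusted p = 3.0e-05), a ratio of 1.80. Rps15, a protein of the small subunit's head, ran from 13.75 through 13.91 to 14.01 without feeders and stood at 14.84, 14.60, 14.68 and 14.79 with them (0.83 ± 0.06, SE, limma adjusted p = 2.0e-05). Rpl36a, of the large subunit, ran from 14.07 through 14.12 to 14.37 and stood at 14.90, 14.93, 14.97 and 15.16 (0.82 ± 0.08, SE, limma adjusted p = 9.4e-05). These genes were separated in the opposite direction from Rpl22 and Rps12 on the same arrays. Rpl39 (0.70), Rps4y2 (0.65), Rpl38 (0.63), Rps6 (0.57), Rps20 (0.54), Rps25 (0.52) and Rpl37l1 (0.36) followed.

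**Figure D2:**
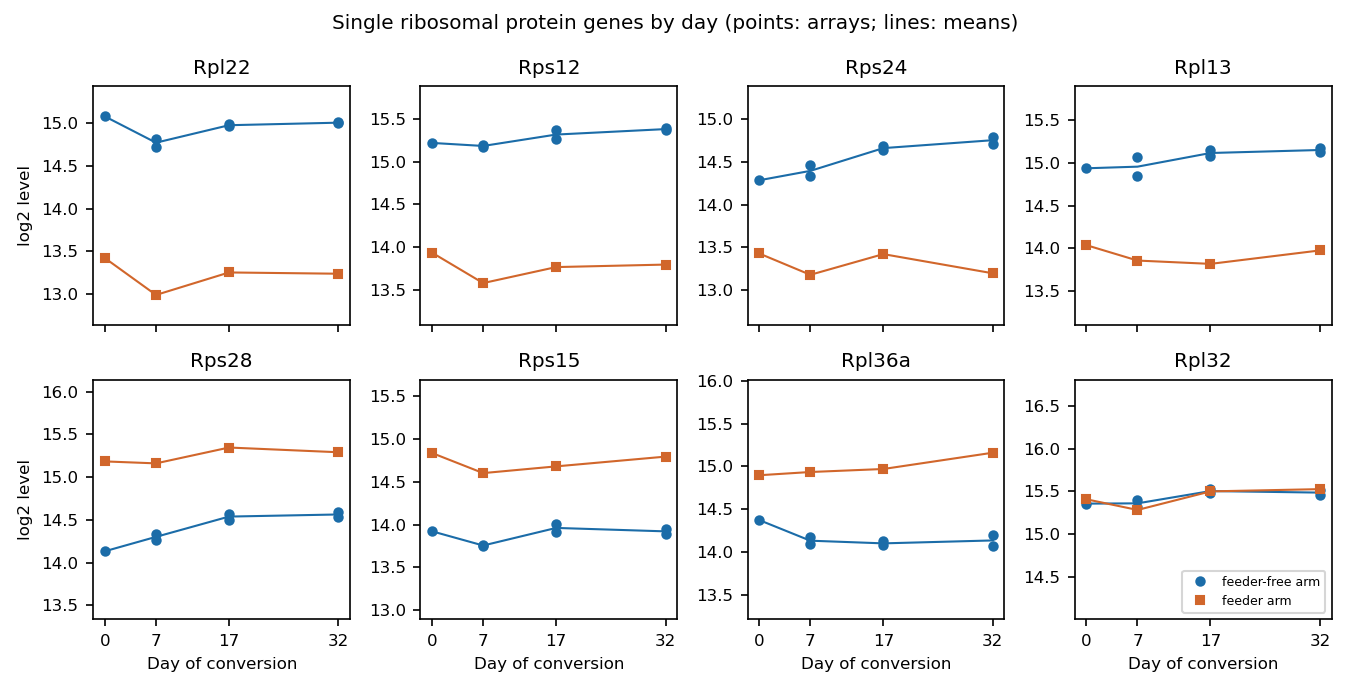
log2 level against day of conversion (days 0, 7, 17 and 32) for 8 ribosomal protein genes; points are arrays, lines join the daily means, and each panel spans the same number of log2 units. Rpl22, Rps12, Rps24 and Rpl13 lie lower in the feeder arm on each day, Rps28, Rps15 and Rpl36a lie higher, and the arms of Rpl32 overlap.

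At the other end, 12 genes were not called between the arms, with sizes up to 0.13. Rpl32, of the large subunit, ran from 15.32 through 15.46 to 15.53 without feeders and from 15.28 to 15.53 with them, and its difference was -0.00 ± 0.05 (SE, limma adjusted p = 0.99). The arms overlapped along the whole range. Rps10, Rpl10, Rps3, Rpl23a, Rpl41, Rps14, Rps19, Rpl29, Rpl19, Rpl30 and Rpl28 were the others. The smallest size that was called was 0.18.

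Role groups are given in turn, and those of the exit tunnel and of the decoding site held genes of both directions. Of the pair that forms a particle with the smallest ribosomal RNA and can bind Mdm2, Rpl5 differed by -0.25 ± 0.07 (SE, limma adjusted p = 0.022) and Rpl11 by -0.23 ± 0.07 (adjusted p = 0.027). Of the proteins that line the exit tunnel for the new chain, Rpl4 (-0.24) and Rpl17 (-0.40) were lower and Rpl39 (0.70) was higher. At the entry and decoding site of the small subunit, Rps23 was lower (-0.57), Rps2 was higher (0.23) and Rps3 was not called (-0.03, adjusted p = 0.78). Rpl24, which takes part in a bridge between the subunits, was lower (-0.82), and Rpl10, one of the last proteins to join the large subunit, was not called (-0.02, adjusted p = 0.80). Rps6, the substrate of the S6 kinases, was higher by 0.57 ± 0.08 (SE, limma adjusted p = 5.6e-04). Rps4x (0.32) and its copy Rps4y2 (0.65) were both higher.

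Both subunits had genes in both directions. Of 43 genes of the large subunit by symbol, Rpl17-ps16 included, 11 were called higher and 24 lower, with a median difference of -0.23. Of 27 genes of the small subunit by symbol, Rps19bp1 included, 10 were called higher and 13 lower. Their median was -0.08 and their median size 0.55. The difference between the subunits was not tested. Structural genes that the symbol rule leaves out were read beside these. Of the 5 measured of 6 listed, Rpsa, a small subunit protein also known as the laminin receptor, was lower in the feeder arm by 0.88 ± 0.06 (SE, limma adjusted p = 1.4e-05). Rplp2 (0.50) and Fau (0.31) were higher, Rplp1 (-0.33) was lower, and Rplp0 was not called (0.15, adjusted p = 0.063). From day 0 to day 32, Rplp0 (0.37 ± 0.08, limma adjusted p = 0.0086) and Rplp2 (0.26 ± 0.08, adjusted p = 0.046) rose. Both belong to the stalk that recruits translation factors, as does Rplp1, which was not called (0.04, adjusted p = 0.76).

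**Figure D3:**
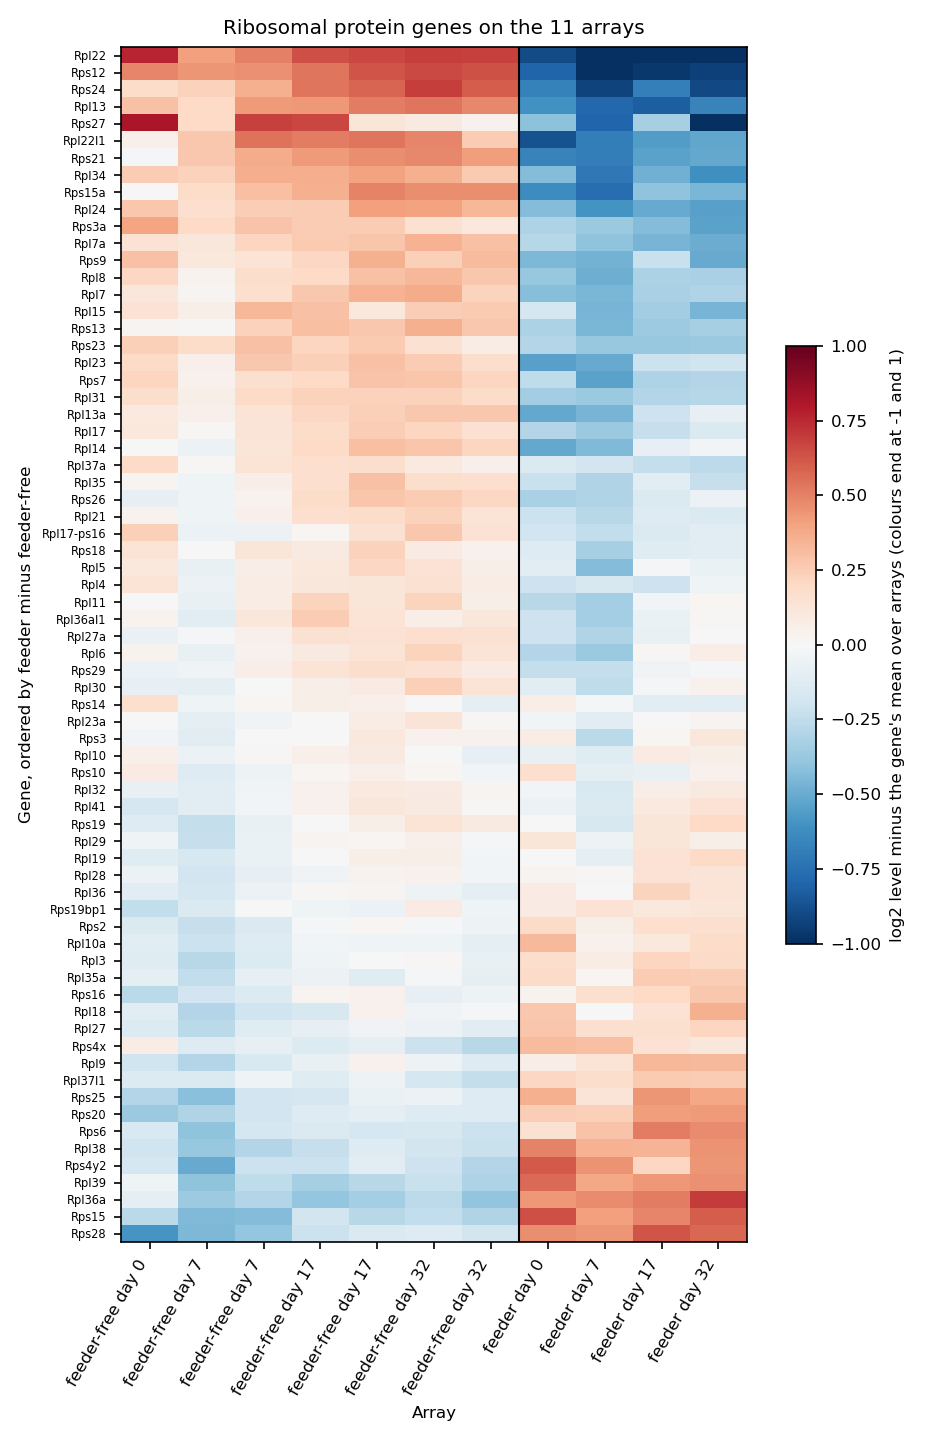
Each of the 70 ribosomal protein genes (rows, ordered by the difference between the arms) on the 11 arrays (columns), as log2 level minus the gene's mean over arrays; the colour scale ends at -1 and 1. The 7 feeder-free columns and the 4 feeder columns form opposite blocks at the top, led by Rpl22, and at the bottom, led by Rps28, with little change along the days inside a block.

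The difference between the arms was seen at each day. By a fit with a mean for each of the 8 groups, whose spread comes only from the feeder-free pairs, limma called 33 of the 70 genes at day 0 (31.5% of all genes), 41 at day 7 (41.2%), 34 at day 17 (27.7%) and 36 at day 32 (25.9%). Higher and lower calls were 10 and 23 at day 0, 13 and 28 at day 7, 9 and 25 at day 17, and 13 and 23 at day 32. Of all genes, 14.7% were higher and 16.9% lower at day 0, 20.4% and 20.8% at day 7, 13.9% and 13.8% at day 17, and 14.3% and 11.6% at day 32. Quantile normalization gave 20 and 27 at day 0 and 17 and 28 at day 17, and centring on bright genes gave 20 and 23 and 15 and 28. The sign was the same on all 4 days in 64 of the 70 genes (91.4%), 24 higher and 40 lower, against 44.6% of all genes and 61.9% of the bright genes outside the family. Of the 70 genes 27 were called on all 4 days, 7 higher and 20 lower, and 22 on none.

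The sizes of the differences were similar over the days. Rpl22 differed by -1.66 at day 0, -1.78 at day 7, -1.72 at day 17 and -1.77 at day 32. Rps15 differed by 0.92, 0.85, 0.72 and 0.87. Over the 70 genes, the differences of any day against those of another day gave a Pearson correlation between 0.947 and 0.982, as a description. The days share no array, while each gene's probe set is common to them. Over all genes the same correlations lay between 0.362 and 0.821. All genes had a lower median level (9.58 against 14.63), and the bright genes outside the family were not compared on this measure. In 44 of the 70 genes the difference between the arms was larger than the gene's range over days in either arm.

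**Figure D4:**
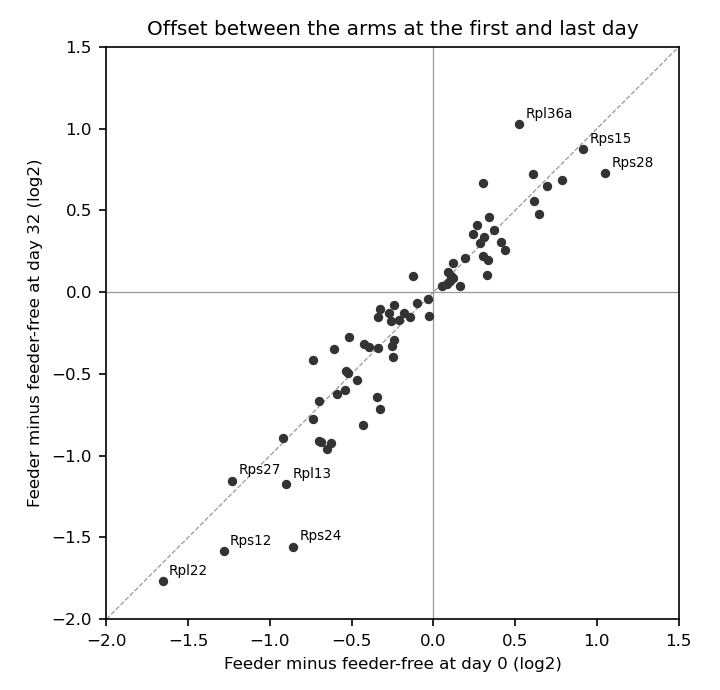
Feeder minus feeder-free difference (log2) of the 70 ribosomal protein genes at day 0 (horizontal) and day 32 (vertical); the dashed line marks equal values. Points lie along the line from Rpl22, at -1.66 and -1.77, to the genes higher with feeders. Rps24, at -0.86 and -1.56, and Rps28, at 1.05 and 0.73, lie below it, and Rpl36a, at 0.52 and 1.03, lies above it.

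Whether the arms changed differently over time was tested gene by gene. For day 7 minus day 0, limma called none of the 70 genes against 22.0% of all genes, with 0 at an unadjusted p under 0.05 and 5 with trend and robust settings. The largest differences of the change were -0.37 in Rps15a and -0.36 in Rps21 (adjusted p = 0.21 each). For day 17 minus day 7, none was called against 19.7%, with 1 at an unadjusted p under 0.05 and 1 with trend and robust settings. The largest were 0.51 in Rps27 (adjusted p = 0.30) and -0.43 in Rps4y2 (adjusted p = 0.16). For day 32 minus day 0, a comparison added after the data were seen, 1 gene was called against 10.6% of all genes. It was Rps24, at 14.29 on day 0 and 14.80 and 14.71 on day 32 without feeders, and at 13.43 and 13.20 with them. The feeder-free arm rose by 0.47 while the feeder arm was lower by 0.23, a difference of -0.70 ± 0.19 (SE, limma adjusted p = 0.030). The call was lost without feeder-free day 32 replicate 1 (-0.66, adjusted p = 0.076).

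Fibroblast markers, listed for the feeder cells, were read beside these values. Of 14 measured of 15 listed genes, 5 were called higher in the feeder arm and none lower by the fit with terms for day and arm. A marker that fades over the days adds to the spread of that fit. At day 0 all 14 genes were higher with feeders, from 0.31 (log2, Col5a1) to 4.99 (Postn), with Col1a1 at 3.17 and Col1a2 at 2.50. Their median level was between 8.37 and 8.76 on the 7 feeder-free arrays and 10.08, 9.54, 8.91 and 8.91 on the feeder arrays of days 0, 7, 17 and 32. Col1a1, the main fibroblast collagen, fell from 13.13 to 11.15, 10.19 and 10.004 in the feeder arm and was between 9.57 and 10.04 in the feeder-free arm. Over the same days the median size of the ribosomal protein genes' difference was 0.34, 0.40, 0.35 and 0.35. The fibroblast median of the feeder arm stayed above each feeder-free array on all 4 days. Single markers at day 32 lay on both sides of 0 in the difference between the arms. Col1a1 (0.06), Postn (0.01) and Col1a2 (-0.03) were near 0, Thy1 was at -0.24, and Pdgfrb (0.34) and Twist2 (0.35) were higher with feeders. S100a4 differed by 0.32 at day 0, 3.23 at day 7, 3.97 at day 17 and 1.94 at day 32. Its difference was thus larger on each later day than at day 0, while that of Col1a1 fell from 3.17 to 0.06. The part of feeder cell RNA in the differences was not tested. The labels do not say whether the arms were hybridised together, and a batch between them cannot be told apart from the culture.

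Genes with and without a TOP tract at the annotated start lay in both directions. The 21 genes with a tract had a median difference between the arms of -0.30, from -1.74 (Rpl22) to 0.83 (Rps15), 7 above 0 and 14 below. The 36 without had a median of -0.22, from -1.52 (Rps12) to 0.85 (Rps28), 15 above 0 and 21 below. From day 0 to day 32 the medians were -0.00 with a tract and 0.10 without. These windows describe the annotation and were not tested against the values.

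Many ribosomal protein genes have more than 1 row in the table. Mammalian genomes are known to hold many processed copies of these genes. The 51 genes with several rows held 234 rows, up to 21 for Rpl21, and made up 17.6% of all rows of such genes on the array. In 6 genes some rows had identical values on all arrays, 14 rows in all, which leaves 245 distinct rows over the family. Rows of a gene share the arrays and may share probes or bind transcripts of copies, which was not tested.

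Rows of a gene mostly gave the same difference between the arms. The sign was the same in all rows in 41 of the 51 genes. The range over the rows of a gene had a median of 0.15 and was under 0.2 in 32 genes. The SD of the difference was 0.14 over the rows of a gene and 0.56 over the 70 genes. The 3 rows of Rpl22 gave -1.74, -1.56 and -1.68, the 4 rows of Rps12 lay between -1.52 and -1.42, and the 2 rows of Rps28 gave 0.85 and 0.88. The 21 rows of Rpl21 lay between -0.39 and -0.15. The change from day 0 to day 32 varied less over rows, with a median range of 0.05 and a range under 0.1 in 45 genes.

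Where rows disagreed, the values of the gene are uncertain. In 4 genes the range over rows was above 0.5. In Rpl13, 6 rows with mean levels between 14.24 and 14.64 gave between -1.20 and -1.13, and the dimmest row, at 11.58, gave 0.16. In Rpl5 the brightest row gave -0.25 and the 2 others -1.06 and -0.997. In Rpl27 the brightest row gave 0.32 and the 2 others -0.38 and -0.30, and in Rpl36al1 the rows gave -0.23 and 0.33. The other genes with rows on both sides of 0 were Rpl4, Rpl23a, Rpl29, Rpl35a, Rpl41, Rps10 and Rps19. Of the 21 genes with several rows and a brightest-row size over 0.5, all but Rpl13 had the same sign in every row.

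**Figure D5:**
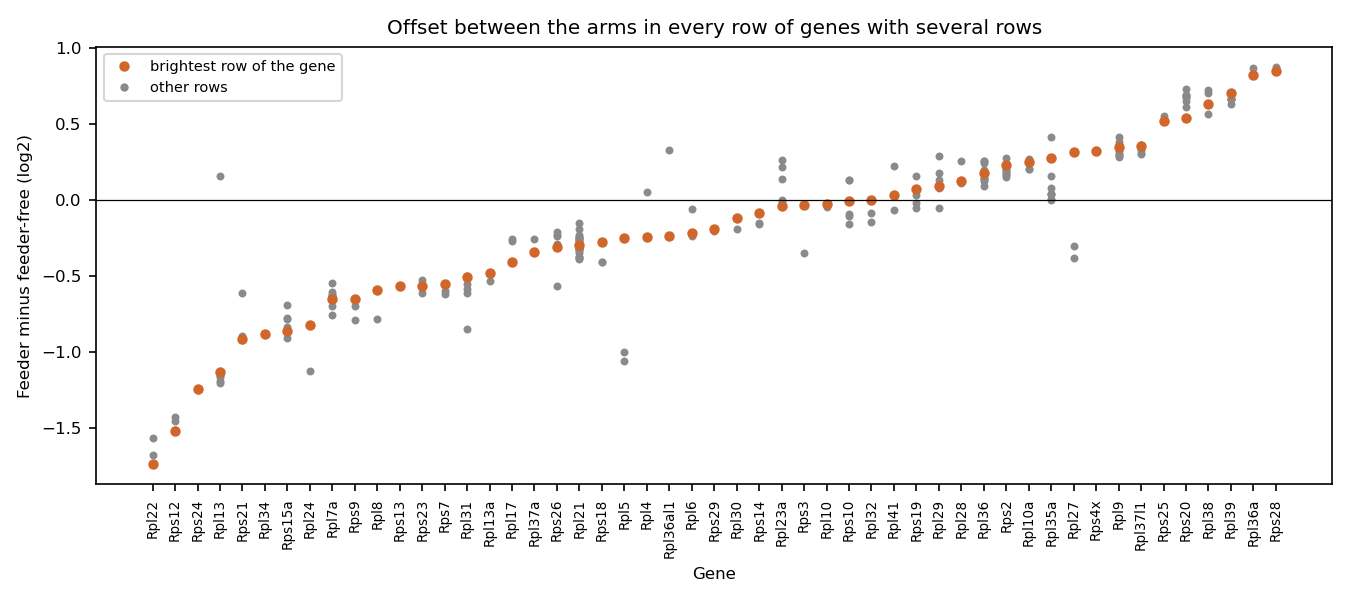
Feeder minus feeder-free difference (log2) in every row of the 51 ribosomal protein genes with several rows, ordered by the brightest row; coloured points are the brightest rows and grey points the others. Rows of a gene lie close together for Rpl22, Rps12 and Rps28 and apart for Rpl13 and Rpl5.

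mRNAs outside the ribosome that are also known to carry TOP tracts, mainly translation factors, also lay in both directions. Of 19 measured of 22 listed, 4 were higher and 9 lower in the feeder arm, against 15.5% and 17.2% of all genes, with a median of -0.15. Hnrnpa1, an RNA-binding protein, was lower by 0.82 ± 0.08 (SE, limma adjusted p = 7.7e-05), and Eef1b2, an elongation factor subunit, by 0.66 ± 0.09 (SE, adjusted p = 7.2e-04). Btf3 (-0.51) and Eif4a2 (-0.39) were lower as well. From day 0 to day 32, 2 of the 19 were called, against 31.0% of all genes, both lower: Hnrnpa1 (-0.40) and Nap1l1 (-0.33).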

How the data were processed

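The authors deposited a table of log2 expression values for 11 Rat Gene 1.0 ST arrays of biotin-labelled total RNA; the submitters' processing notes name RMA alone, and further settings are not given in the sources used here. RMA sets all arrays to 1 distribution over probes, so that a shift shared by most genes is removed. Of 29214 rows, 15310 have 1 symbol, 323 several and 13581 none in the platform annotation. The brightest row stood for each of 14506 genes, and 249 of 253 ribosomal protein rows matched RefSeq by ID, with 0 symbols changed. limma 3.58.1 in R 4.3.3 (lmFit, eBayes) was fitted to day plus culture (6 residual degrees of freedom) or to 8 group means (3), with Benjamini-Hochberg adjustment over all genes and a threshold of 0.05. Named genes were the 10 called members with the largest rise and fall per comparison (the 2 largest where none passed), role and copy lists, members with several rows, the 3 brightest and dimmest, and up to 4 called genes of each other list. The members and lists were chosen with earlier results of these data known. The fits were tested on simulated data for 14506 genes, with 50 genes changed at each size. Changes of 0.3 and 0.6 (log2) were recovered in 22% and 72% of cases for day 7 minus day 0. For the arms they were recovered in 50% and 94%, and for the arms at day 0 alone in 0% and 10%. For day 7 minus day 0 the simulation gave 150 calls, where the data gave 2322. The adjusted threshold is stricter where fewer genes change, so that these rates do not carry over to the data. Alternatives changed the row per gene, the filter, the scaling, the variance model, the member rule, a replicate block and the arrays; centring on bright genes and the difference between arms in day 32 minus day 0 were chosen after seeing the data.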

Additional observations from a re-analysis of the deposited data

Results flagged for a closer look

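Rps24 was the one ribosomal protein gene whose change from day 0 to day 32 differed between the arms by the limma interaction contrast, by -0.7003 (log2; SE 0.19, adjusted p = 0.030). It was higher by 0.47 in the feeder-free arm and lower by 0.23 in the feeder arm. Its second row gave -0.63 with an adjusted p of 0.059, and over the alternatives the value lay between -0.80 and -0.63, with adjusted p between 1.0e-04 and 0.076. The feeder arm has 1 array at each of these days. The cause was not tested.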

How the results depend on the processing

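The comparison of the arms was the most stable: 58 calls became 49 with a replicate block and 51 to 57 on leaving out 1 array. The 10 called members with the largest rise and the 10 with the largest fall were picked on the same data, favouring a kept call. In these, 419 values over the alternatives kept direction and call. The exception among them was Rpl13, at 0.16 (limma adjusted p = 0.37) on its dimmest row. Other called members also changed sign on the dimmest row: Rpl27 (-0.30), Rpl36al1 (0.33), Rpl4 (0.05) and Rpl35a (-0.00065). Leaving out 1 array gave 31 to 33 calls at day 0, 39 to 41 at day 7, 28 to 40 at day 17 and 28 to 40 at day 32; the trend and robust setting gave 50 at day 0. The calls over days were few and unstable. In simulation, changes of 0.3 (log2) were often not recovered for day 7 minus day 0. Fewer genes changed there than were called in the data, so that this rate does not apply to these counts. For day 7 minus day 0, the count was 2 on the dimmest rows, after quantile normalization and after both centrings, 3 with trend and robust settings, and 0 to 1 on leaving out 1 array; the median was 0.0088 after quantile normalization. For day 17 minus day 7, it was 10 with trend and robust settings and 6 with 8 group means; the median was -0.0195 after centring on bright genes. For day 32 minus day 17, it was 1 with 8 group means. For day 32 minus day 0, it was 16 with trend and robust settings, 5 in feeder-free arrays alone, 4 after centring on genes tested, 0 with the replicate block and 0 to 9 on leaving out 1 array; the median was -0.0571 after centring on bright genes. The difference between arms gave, for day 7 minus day 0, 4 calls after quantile normalization and 5 with trend and robust settings, and a median of 0.0204 after centring on genes tested. For day 17 minus day 7, it gave 1 with trend and robust settings and 0 to 1 on leaving out 1 array, and a median of -0.0917 after that centring and from -0.0399 (without feeder-free day 7 replicate 2) to 0.0815 on leaving out 1 array. For day 32 minus day 0, it gave 3 after quantile normalization, 4 with trend and robust settings, and 0 to 1 on leaving out 1 array. The cause of these moves was not tested.

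Replicate numbers did not pair the feeder-free samples: same-numbered deviations correlated at 0.0341, -0.1954 and -0.0991 between days. With the replicate block, counts at days 0, 7, 17 and 32 were 28, 35, 32 and 32. Contrasts that need a single array could not be fitted without it. Using 71 structural genes in place of the 70 gave 58 calls between the arms and 11 for day 32 minus day 0.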

Other observations

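Genes that assemble ribosomes were read from a separate list, and the counts of each list stand against all genes, of which 17.4% were higher and 13.7% lower at day 32 than at day 0, and 15.5% higher and 17.2% lower in the feeder arm. Of 39 measured of 43 listed biogenesis factors, limma called 12 higher and 5 lower at day 32 than at day 0, and 9 higher and 17 lower in the feeder arm. Sbds, a late factor of large subunit maturation, rose from 11.79 to 12.69 and 12.60 in the feeder-free arm and from 11.36 to 12.62 in the feeder arm (0.99 ± 0.18, SE, limma adjusted p = 0.0033). Tsr1 (0.69) and Mybbp1a (0.61) also rose. Gnl3l, a nucleolar GTPase, fell by 1.49 ± 0.29 (SE, limma adjusted p = 0.0049); it was at 11.38 and 11.54 by day 7 without feeders but at 12.75 with them. Between the arms, Utp3 (-1.32), Wdr43 (-1.31) and Dkc1 (-1.18) were lower with feeders, and Eif6 (1.18), which keeps the subunits apart, was higher. Of 9 measured of 13 listed genes of RNA polymerase I, which transcribes ribosomal RNA, 3 rose and 1 fell by day 32. Polr1d rose by 1.02 ± 0.23 (SE, limma adjusted p = 0.0087) over both arms, from 9.73 to 11.29 and 11.18 without feeders and from 11.25 to 11.72 with them, and this change differed between the arms by -1.03 (adjusted p = 0.0049). Ubtf fell by 0.66 ± 0.15 (SE, adjusted p = 0.011). With feeders 4 were higher, Polr1d (0.68), Polr1c (0.67), Taf1d (0.59) and Polr1b (0.42).

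Of 13 measured of 14 listed genes of mTOR and Myc signalling, which act on TOP mRNAs and ribosome synthesis, 3 rose and 4 fell by day 32. Mycn rose from 12.14 to 13.15 and 13.10 in the feeder-free arm and from 11.84 to 13.07 in the feeder arm (1.06 ± 0.11, SE, limma adjusted p = 3.5e-04), and its partner Max rose by 0.60. Myc was not called (-0.93, limma adjusted p = 0.33). Its feeder minus feeder-free difference was -1.56 at day 0 and 0.84 at day 32, so that the arms changed differently. The 4 that fell were Tsc2 (-0.74), Eif4ebp2 (-0.66) and Eif4ebp1 (-0.46), which restrain mTOR signalling or translation, and Rheb (-0.48, adjusted p = 0.018), which activates mTOR. With feeders 2 were higher and 3 lower. Of 5 measured of 8 listed genes of the p53 response, 2 rose and 1 fell by day 32, led by Gdf15 (-1.07), and with feeders 1 was higher and 4 lower. Of 9 measured of 10 listed trophoblast markers, 6 were higher and 1 lower at day 7 than at day 0, where 16.0% of all genes were called, and 2 were higher and 3 lower at day 32.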
